A study of Arabidopsis thaliana with 4 samples.

Results

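Athila elements are long terminal repeat retrotransposons of the Gypsy type that make up much of the repeat-rich DNA around the centromeres of Arabidopsis thaliana. The array held 538 genes of this family among 30361 gene models. They were picked by their deposited descriptions, which had to name a transposon or retroelement together with Athila. The rule reads no expression value, but it was chosen with earlier results of these data known. Another 5 models whose descriptions name Athila without either of those words are not members. Of these, AT5G35145 had 478 and 543 on the arrays that the series value table labels TEKi against 6811 and 7278 on those it labels wild type. It is named after its values were seen, as the only model of the 5 that passed the threshold used below. The log2 difference of AT5G31314 had the other sign (0.99), and those of the rest were negative.

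Total RNA came from seedlings harvested on day 7 and was hybridised to 4 single-colour Cy3 arrays. Per the labels, 2 arrays held TEKi, Landsberg erecta (Ler) plants with an artificial microRNA against TEK and late flowering, and 2 held wild-type Ler with normal flowering. Both groups grew on plates of MS medium, with a separate culture behind each array. TEK encodes an AT-hook DNA-binding protein that the series title names as a killer of transposable elements, and neither the promoter that drives the artificial microRNA nor the number of TEKi lines was found in the labels.

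An intact Athila element carries long terminal repeats, an internal region that codes for a Gag-like protein and a polyprotein with reverse transcriptase, and in some copies an envelope-like frame. Most copies are decayed and cannot code for these proteins. Athila chromatin is normally held silent by DNA methylation, which the maintenance methyltransferase MET1 and the chromatin remodeller DDM1 sustain, and by methylation of histone H3, and Athila transcripts are known to appear when these factors are lost. Released Athila transcripts are cut into small RNAs that feed back on silencing.

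The 2 deposited forms of the data disagree on which array belongs to which group, and this bears on every result below. TEKi 2 and wild type 1 were the same arrays in both sources. A disputed array, array X, was filed as wild type 2 but stood under TEKi 1 in the series value table, and its counterpart, array Z, was filed as TEKi 1 but stood under wild type 2. Each value-table column matched 1 array exactly for all 30361 models. No array was relabelled by its values, and results are given with both sets of labels and for the undisputed pair. TEK itself did not distinguish them, with 14118 on array X, 13770 on TEKi 2, 13406 on wild type 1 and 9864 on array Z. FWA, a homeobox gene normally silenced by methylation in seedlings and a cause of late flowering when active, had 350 on array X and 111 on TEKi 2, against 39799 on wild type 1 and 37534 on array Z. Low FWA on TEKi 2 and high FWA on wild type 1 run against the late and normal flowering that the labels give these samples, so every direction below is that of arrays as labelled (TEKi-labelled and wild-type-labelled arrays).

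Of the 538 members, 474 were described by similarity to Athila ORF1, an open reading frame of a described Athila element. Reverse transcriptase of the related element Athila4 was named for 41 members and Athila ORF2 for 14, and 9 named no reading frame. A match to a database protein with its BLAST p-value was quoted for 492 members, while the other 46 carried a shorter description of similarity. RefSeq lists all 538 loci as pseudogenes in its TAIR10.1 annotation. Each member was read by 2 probe pairs (530 members) or 3 (8 members), and 4 members each cover more than 1 locus. Probe sequences were not used here, so hybridisation of a probe to further Athila copies was not tested.

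Athila genes were dim for the array as a whole. Of the 538, 304 lay in the lowest quartile of mean log2 intensity over the 4 arrays among all genes tested and 520 below the median. Intensity stayed under 1000 on all 4 arrays for 313 members and over 1000 on all 4 for 55, and none was 0. No detection flags were used, so it is not known which dim values lie above background, and folds describe deposited intensities rather than transcript amounts. The family was brighter on wild type 1 and array Z than on the other arrays. The median member had 267 on array X, 285 on TEKi 2, 471 on wild type 1 and 474 on array Z. The contrast was wider at the bright end: intensity passed 10000 for 1 member on array X and 0 on TEKi 2, against 45 on wild type 1 and 54 on array Z. Over all genes on the array, 42.1% passed 10000 on array X and 42.1% on TEKi 2, against 42.0% on wild type 1 and 42.0% on array Z.

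**Figure D1:**
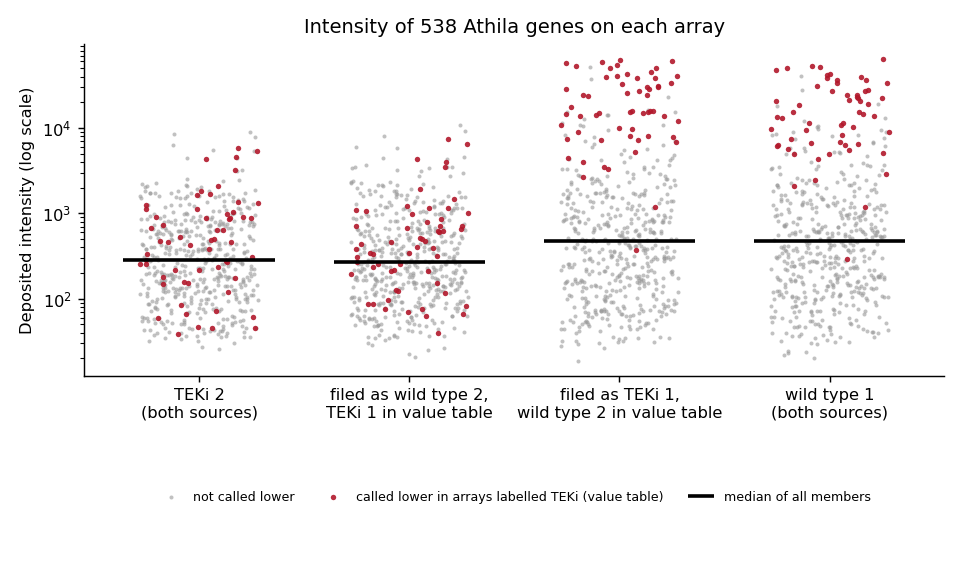
Deposited intensity (log axis) of each of the 538 Athila genes on the 4 arrays, with a black line at the median. Red points are the 59 genes called lower in the arrays that the value table labels TEKi, which reach at most 7320 on TEKi 2 and array X and up to 64047 on wild type 1 and array Z.

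The arrays paired up in the family as they did over all genes. As a description across genes of 1 family, the log2 intensities of the 538 members had a Pearson's r of 0.818 between TEKi 2 and array X and 0.935 between wild type 1 and array Z. It was 0.534 between TEKi 2 and array Z, the arrays filed as TEKi, and 0.641 between wild type 1 and array X, those filed as wild type. More than 4-fold separated the arrays for 23 members between TEKi 2 and array X and for 20 between wild type 1 and array Z, but for 149 between TEKi 2 and array Z and for 127 between wild type 1 and array X. Over all genes tested, 2.70% were that far apart between TEKi 2 and array X and 2.73% between wild type 1 and array Z, but 7.53% between TEKi 2 and array Z and 6.61% between wild type 1 and array X. The members' shares for the same pairs of arrays were 4.28%, 3.72%, 27.7% and 23.6%.

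The tissue label was checked against fixed markers. Of 5 green-tissue genes 4 were at 54170 or more on all arrays, while LHCB1.1 stayed between 96.3 and 636. Of 4 root genes none passed with either set of labels. The summed intensity of 7 pollen and sperm genes was 4739 and 5779 on the arrays that the value table labels TEKi and 6090 and 3805 in those labelled wild type, and none passed. Of 4 seed genes 1 passed, the storage protein gene CRA1, which fell (739 and 1388 on TEKi-labelled arrays against 15671 and 14517 on wild-type-labelled arrays, adjusted p = 0.0464). CRC (adjusted p = 0.271), OLEO1 (0.408) and AT2S3 (0.971) did not pass. The sum over the 4 was 6192 and 11809 on TEKi-labelled arrays against 67629 and 34993 on wild-type-labelled arrays, of which CRC alone made 35363 on wild type 1 and 6757 on array Z, and none of the 4 was at 0. Their part in the Athila result was not tested. In RNA of whole tissue, fewer cells expressing an element and less RNA per cell cannot be told apart.

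In the undisputed pair, TEKi 2 against wild type 1, Athila genes were mostly lower on TEKi 2. With 1 array a side there is no replicate check and no test. More than 4-fold lower on TEKi 2 were 133 members (24.7%), beside 4.92% of all 30352 genes tested, and more than 4-fold higher were 14 (2.60%), beside 2.50% of all genes. The median log2 difference, TEKi 2 minus wild type 1, was -0.45 for the family and 0.07 for all genes. Among the 14, AT4G06524 had 902 on TEKi 2 against 37.8 on wild type 1, the highest ratio of any member, but array X had 147.5 and array Z 92.4. That gene was therefore higher on TEKi 2 alone, and it stayed under 1000 on every array.

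With the array-file labels no Athila gene passed the threshold, an adjusted p under 0.05 in limma over all genes, and 0% of all genes did. The smallest adjusted p of a member was 1. An unadjusted p under 0.05 was reached by 23 members lower in TEKi (4.28%, beside 2.24% of all genes) and 21 higher (3.90%, beside 2.37%). A fit with plain per-gene variance also called 0. Each group then held 1 of the brighter and 1 of the dimmer arrays for this family. The log2 difference (TEKi minus wild type) had a median of 0.03, beside 0.01 for all genes, and quartiles of -0.50 and 0.51. The arrays did not overlap for 71 members lower in TEKi (13.2%, beside 14.7% of all genes) and 78 higher (14.5%, beside 15.3%). The sign of the median turned on single arrays: leaving out TEKi 1 gave -0.37, leaving out TEKi 2 gave 0.38, leaving out wild type 1 gave 0.36 and leaving out wild type 2 gave -0.34.

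The members with the smallest unadjusted p under the array-file labels were modest in level and none passed. AT3G42258, an ORF1 gene on chromosome 3 (14447547 to 14449803, genome release 6), had 767 and 858 in TEKi against 3033 and 3118 in wild type (log2 difference -1.92, SE 0.174, n = 2 arrays a group, adjusted p = 1). AT2G07450, another ORF1 gene, had 450 and 392 in TEKi against 1247 and 1384 in wild type, and its groups did not overlap. AT4G06742 and the reverse transcriptase gene AT5G29565 were also lower, with log2 differences of -1.31 and -1.34. On the other side AT3G37820 had 781 and 543 in TEKi against 187 and 141 in wild type (SE of the log2 difference 0.304, adjusted p = 1). AT4G06726, AT5G32481 and AT2G12800 had log2 differences of 1.36, 1.08 and 1.14, each with adjusted p = 1.

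With the value-table labels, 59 of the 538 Athila genes fell in the arrays labelled TEKi and 1 rose. Falls made up 11.0% of the family beside 1.95% of all genes tested, and the single rise 0.186% beside 0.273%. Members that fell had a median intensity of 456 in the arrays labelled TEKi and 15475 in those labelled wild type. All 59 were more than 4-fold lower in the undisputed pair. The arrays of that pair are among the 4 that made the calls, so this is no separate check. The falls of the 59 ran from 4.48-fold to 419-fold with a median of 28.2-fold. Among them 43 exceeded 16-fold and 16 exceeded 64-fold. Over the whole family the log2 difference had a median of -0.33 (quartiles -1.63 and 0.25) beside 0.09 for all genes. It was below 0 for 352 of 538 members (65.4%), beside 39.5% of all genes. An unadjusted p under 0.05 was reached by 154 members lower (28.6%, beside 6.94% of all genes) and 26 higher (4.83%, beside 7.5%). The arrays did not overlap for 205 members lower (38.1%, beside 17.1%) and 70 higher (13.0%, beside 27.7%). These calls rest on all 4 arrays: with any 1 left out 0 were made in the family and 0 over all genes, and the smallest adjusted p of a member lay between 0.0954 (TEKi 1 left out) and 0.245 (wild type 1 left out). Likewise 0 were made, in the family and over all genes, with a replicate block (smallest adjusted p of a member 0.0753), with plain per-gene variance (0.165) and at an adjusted p of 0.01.

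**Figure D2:**
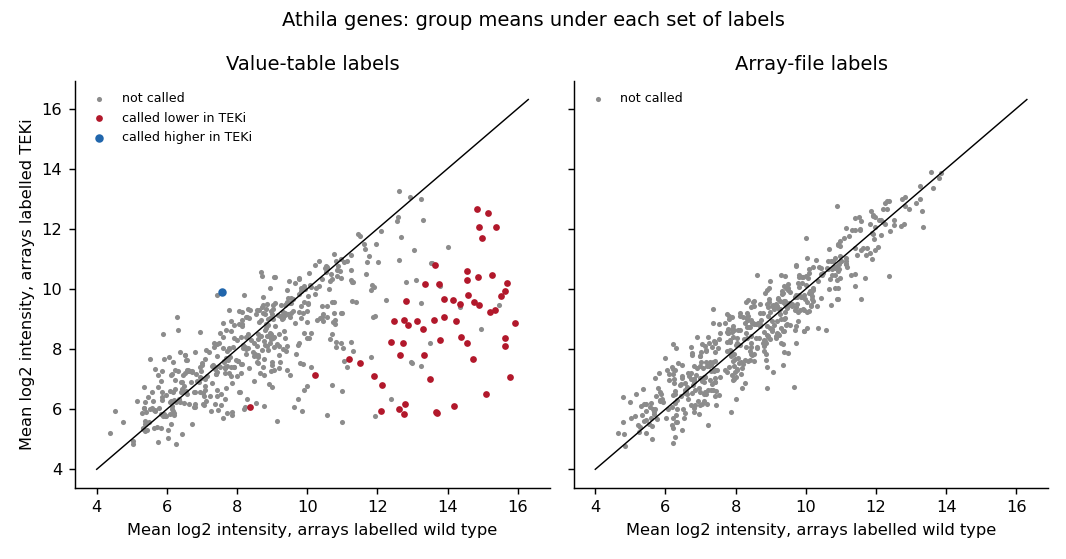
Mean log2 intensity of each Athila gene in the arrays labelled TEKi (vertical) and wild type (horizontal) under the value-table labels (left) and the array-file labels (right), with the line of equality. Under the value-table labels 59 genes called lower (red) lie below the line and 1 called higher (blue) above it, and under the array-file labels none was called.

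The largest fall in the family was that of AT5G32306, an ORF2 gene on chromosome 5 (11958388 to 11960283). It had intensities of 213 and 83.7 in the arrays labelled TEKi, against 52831 and 59153 in those labelled wild type (log2 difference -8.71, SE 0.534, n = 2 a group, adjusted p = 0.0224). The groups were far apart, and the arrays labelled wild type differed from each other by little on this scale. AT5G33050, a reverse transcriptase gene on the same chromosome (12419328 to 12425708), had 127 and 65.7 in arrays labelled TEKi against 30587 and 39357 in those labelled wild type (log2 difference -8.57, SE 0.413, adjusted p = 0.0170). AT2G07530, an ORF1 gene on chromosome 2 (3144612 to 3145724), had 39.9 and 119.6 on TEKi-labelled arrays against 22233 and 15343 on wild-type-labelled arrays (log2 difference -8.06, SE 0.649, adjusted p = 0.0328). In each of the 3 genes every TEKi-labelled array lay below every wild-type-labelled one.

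Chromosome 5 held 4 more of the 12 largest falls. AT5G32197, an ORF1 gene (11854017 to 11855963), had 347 and 217 in arrays labelled TEKi against 42364 and 62087 in those labelled wild type (adjusted p = 0.0170). AT5G29975, an ORF1 gene (11341211 to 11347114), had 254 and 422 on TEKi-labelled arrays against 51692 and 50173 on wild-type-labelled arrays (adjusted p = 0.0149). AT5G31719, an ORF1 gene (11706490 to 11709450), had 701 and 311 on TEKi-labelled arrays against 64047 and 60957 on wild-type-labelled arrays (adjusted p = 0.0246). For AT5G31719 wild type 1 sat at 64047, the highest value the files hold for any gene. The ORF2 gene AT5G33389 (12662802 to 12664706) had 153 and 269 in arrays labelled TEKi against 24085 and 30554 in those labelled wild type (adjusted p = 0.0185). In all 4 genes the brighter array labelled TEKi stayed under 1000.

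On chromosome 3 the ORF2 gene AT3G42716 (14810876 to 14812800) fell most, with 75.6 and 45.0 in arrays labelled TEKi against 11371 and 15732 in those labelled wild type (adjusted p = 0.0166). AT3G30620 (12191625 to 12193582), described as Athila with no reading frame, had 95.6 and 38.5 on TEKi-labelled arrays against 11438 and 15029 on wild-type-labelled arrays (adjusted p = 0.0258). AT3G42083, an ORF1 gene (14272945 to 14274690), had 87.7 and 60.1 on TEKi-labelled arrays against 5638 and 8848 on wild-type-labelled arrays (adjusted p = 0.0190). All 3 genes were under 100 on both TEKi-labelled arrays. The largest fall on chromosome 4 was that of AT4G03860 (1806586 to 1809635), similar to Athila without a named frame, with 69.0 and 46.7 in arrays labelled TEKi against 4894 and 9912 in those labelled wild type (adjusted p = 0.0248). On chromosome 1 it was that of the ORF1 gene AT1G37060 (14086963 to 14092584), with 65.6 and 61.7 on TEKi-labelled arrays against 5077 and 7769 on wild-type-labelled arrays (adjusted p = 0.0145).

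The single rise was AT3G43356, an ORF1 gene on chromosome 3 (15315559 to 15317350). It had 897 and 1019 in the arrays labelled TEKi against 179 and 204 in those labelled wild type (log2 difference 2.32, SE 0.182, n = 2 a group, adjusted p = 0.0316). With a mean-variance trend it did not pass (adjusted p = 0.0762). The next members on this side did not pass. AT2G14040, a reverse transcriptase gene, had 179 and 205 on TEKi-labelled arrays against 72.1 and 71.1 on wild-type-labelled arrays (adjusted p = 0.0666), and AT2G10120 had the highest log2 difference of any member, 2.80, at 649 and 452 on TEKi-labelled arrays against 108 and 56.3 on wild-type-labelled arrays (adjusted p = 0.104). AT4G06708 and AT1G41743 had higher values on the TEKi-labelled arrays (adjusted p = 0.101 and 0.127) and were dim on all 4 arrays.

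Some large differences did not pass. Besides the members called, 13 were more than 16-fold lower in the arrays labelled TEKi without passing. AT5G35057, for example, had 129 and 1267 in arrays labelled TEKi against 27516 and 37256 in those labelled wild type (log2 difference -6.31, SE 1.26, adjusted p = 0.164). It is named after its values were seen.

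A few Athila genes were bright on every array. AT1G37070, an ORF1 gene, had 7992 and 8422 in arrays labelled TEKi against 11921 and 7907 in those labelled wild type (log2 difference -0.24, SE 0.272, adjusted p = 0.781). AT4G08132 had 9226 and 7778 on TEKi-labelled arrays against 8849 and 6959 on wild-type-labelled arrays (log2 difference 0.11, SE 0.221, adjusted p = 0.889), and AT1G41798 had 4504 and 5355 on TEKi-labelled arrays against 7692 and 4764 on wild-type-labelled arrays (log2 difference -0.30, SE 0.316, adjusted p = 0.765). In these 3 ORF1 genes the groups overlapped, and the differences did not exceed the spread between replicates. The other 2 of the 5 with the highest minimum did fall: AT4G07458 had 7320 and 5764 on TEKi-labelled arrays against 28000 and 30271 on wild-type-labelled arrays (log2 difference -2.16, SE 0.204, adjusted p = 0.0442), and AT3G42252 had 6431 and 5406 on TEKi-labelled arrays against 33495 and 40226 on wild-type-labelled arrays (log2 difference -2.64, SE 0.205, adjusted p = 0.0310).

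Shares of members that fell are given by the reading frame they name. Of the 14 ORF2 genes 9 fell with the value-table labels (64.3%), with a median log2 difference of -5.76, and of the 9 genes with no named frame 4 fell (median -3.99). Of the 474 ORF1 genes 43 fell (9.07%, median -0.29), and of the 41 reverse transcriptase genes 3 fell (7.32%, median -0.25). Over all genes tested 1.95% fell. No test of these differences was made, since genes of a family are not replicates of a condition. In the undisputed pair 13 of 14 ORF2 genes were more than 4-fold lower on TEKi 2, against 106 of 474 ORF1 genes and 7 of 41 reverse transcriptase genes. Among all genes tested 4.92% were that much lower in this pair.

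Among the other ORF2 genes that fell, AT3G33067 (chromosome 3, 13653294 to 13655023) had 1057 and 902 on TEKi-labelled arrays against 50033 and 52548 on wild-type-labelled arrays, and its adjusted p of 0.0128 was the lowest of any member together with that of AT4G07942. AT3G43862 had 976 and 1840 on TEKi-labelled arrays against 26766 and 32807 on wild-type-labelled arrays (adjusted p = 0.0385). AT3G42445 was dimmer, with 115 and 175 on TEKi-labelled arrays against 1185 and 1191 on wild-type-labelled arrays (adjusted p = 0.0401). The ORF2 genes that did not pass included AT4G05591, where the TEKi-labelled arrays were far apart, at 3363 and 164, against 8284 and 11475 on wild-type-labelled arrays (adjusted p = 0.458). Besides AT5G33050, the reverse transcriptase genes that fell were AT4G06686 and AT1G41700. AT4G06686 had 703 and 882 on TEKi-labelled arrays against 20763 and 15886 on wild-type-labelled arrays, a fall of 23.1-fold. AT1G41700 had 234 and 177 on TEKi-labelled arrays against 2078 and 2655 on wild-type-labelled arrays, a fall of 11.5-fold. Of the members read by 3 probe pairs only AT2G10250 fell, with 122 and 151 on TEKi-labelled arrays against 4380 and 3306 on wild-type-labelled arrays. The ORF2, reverse transcriptase and AT2G10250 examples added here were named after their values were seen.

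Most ORF2 genes stood close to an ORF1 gene, and the values of both are given here as a description, with no test of their difference. A member lay within 2000 bases of 11 of the 14, and in each case it was an ORF1 gene, at a median gap of 1311 bases. This limit leaves out the ORF2 gene AT3G42253 and the ORF1 gene AT3G42252, 2868 bases away, which both fell (log2 differences -5.97 and -2.64). Among these 11 pairs 7 ORF2 genes fell and 0 of the ORF1 neighbours did, beside 9.07% of all ORF1 members. The median log2 difference was -5.71 for the ORF2 genes and -0.03 for their neighbours, and in 10 of 11 pairs the ORF2 gene had the lower difference. Some neighbours were dim on every array, where a large fall could hardly appear, so the lack of a call does not show them unchanged. AT3G42715 had 22.3 and 77.7 on TEKi-labelled arrays against 46.0 and 71.9 on wild-type-labelled arrays. AT5G32622 had 26.7 and 30.2 on TEKi-labelled arrays against 70.7 and 81.9 on wild-type-labelled arrays (log2 difference -1.42, adjusted p = 0.0759). Beside AT5G32306, the ORF1 gene AT5G32293 lies 1249 bases away and had 1427 and 1704 in the arrays labelled TEKi against 2245 and 1717 in those labelled wild type (log2 difference -0.33, SE 0.232, adjusted p = 0.639). Beside AT4G07942, which had 313 and 278 in arrays labelled TEKi against 23216 and 24507 in those labelled wild type (adjusted p = 0.0128), the ORF1 gene AT4G07941 lies 243 bases away and had 750 and 724 on TEKi-labelled arrays against 953 and 1115 on wild-type-labelled arrays (log2 difference -0.48, SE 0.175, adjusted p = 0.368). The exception was AT5G31923, a short ORF2 model with 667 and 849 on TEKi-labelled arrays against 688 and 694 on wild-type-labelled arrays, whose neighbour AT5G31884 had the lower log2 difference (-1.53, SE 0.691, adjusted p = 0.463). Neighbours were examined after the values of the ORF2 genes had been seen.

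**Figure D3:**
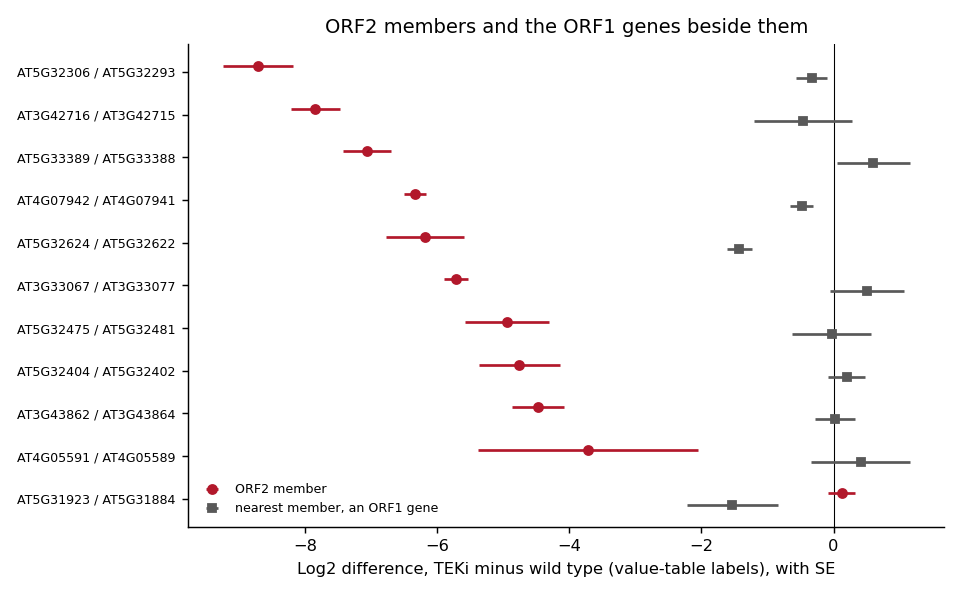
Log2 difference (TEKi minus wild type, value-table labels) with its moderated SE for the 11 ORF2 genes that have another Athila gene within 2000 bases (red circles) and for that neighbour, an ORF1 gene in each case (grey squares). In 10 pairs the ORF2 gene lies further left; in the pair of AT5G31923 it does not.

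Neighbouring members of every kind were then compared. On the array 160 pairs of members were next to each other along the chromosome, with a median gap of 1825 bases, and in 37 of them at least 1 member fell. Both fell in 1 pair, AT3G42252 and the ORF2 gene AT3G42253, and exactly 1 in the other 36. Of the 264 members in these pairs 34 fell, beside 59 of all 538. With shares this low few pairs would hold 2 if calls were unrelated, so the single pair is not a result about neighbours. Whether calls of neighbours are related was not tested. AT4G08131, an ORF1 gene 169 bases from the bright AT4G08132, had 462 and 529 in arrays labelled TEKi against 6595 and 7263 in those labelled wild type (log2 difference -3.81, SE 0.177, adjusted p = 0.0165).

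Members were also split by how they are described. Of the 46 members without a quoted BLAST match 25 fell (54.3%, median log2 difference -4.17), and of the 492 with one 34 fell (6.91%, median -0.25). None of the ORF2 genes has a quoted match, and of the 23 ORF1 genes without a match 12 fell, against 31 of 451 with a match. Among ORF1 genes with a match, 22 of 203 fell where the negative exponent of the BLAST p-value was over 150 and 3 of 116 where it was over 50 and up to 150. It was 6 of 118 for weaker matches and 0 of 14 for the closest, whose p-value was written as 0. By model length, 14 of 134 fell in the shortest quartile, 12 of 135 in the next, 8 of 134 in the third and 25 of 135 in the longest. Over all genes tested 1.95% fell. From the dimmest to the brightest quartile of level 0 of 134, 1 of 135, 11 of 134 and 47 of 135 fell. Level is the mean over all 4 arrays, which the bright group of a gene that fell raises. Median level was 1280 without a quoted match and 351 with one, and 508 for the longest quartile and 316 for the shortest. None of these splits was tested, and the split by BLAST match was chosen after values were seen.

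Nearly the whole family lay around the centromeres. Of the 538 members 535 were within 3 Mb of a rounded centromere position (15, 4, 14, 4 and 12 Mb on chromosomes 1 to 5) and 382 within 1 Mb. All 60 calls were among the 535. The 3 members further out, AT3G25630, AT4G12915 and AT5G38383, had log2 differences of 0.48, 0.32 and -1.47 and did not pass (adjusted p = 0.810, 0.791 and 0.328). By chromosome 10 of 103 members fell on chromosome 1, 7 of 88 on chromosome 2, 16 of 98 on chromosome 3, 15 of 127 on chromosome 4 and 11 of 122 on chromosome 5, with medians from -0.46 to -0.22. Within 1 Mb of the positions 46 of 382 fell, from 1 to 2 Mb 11 of 132 (8.33%) and from 2 to 3 Mb 2 of 21 (9.52%).

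**Figure D4:**
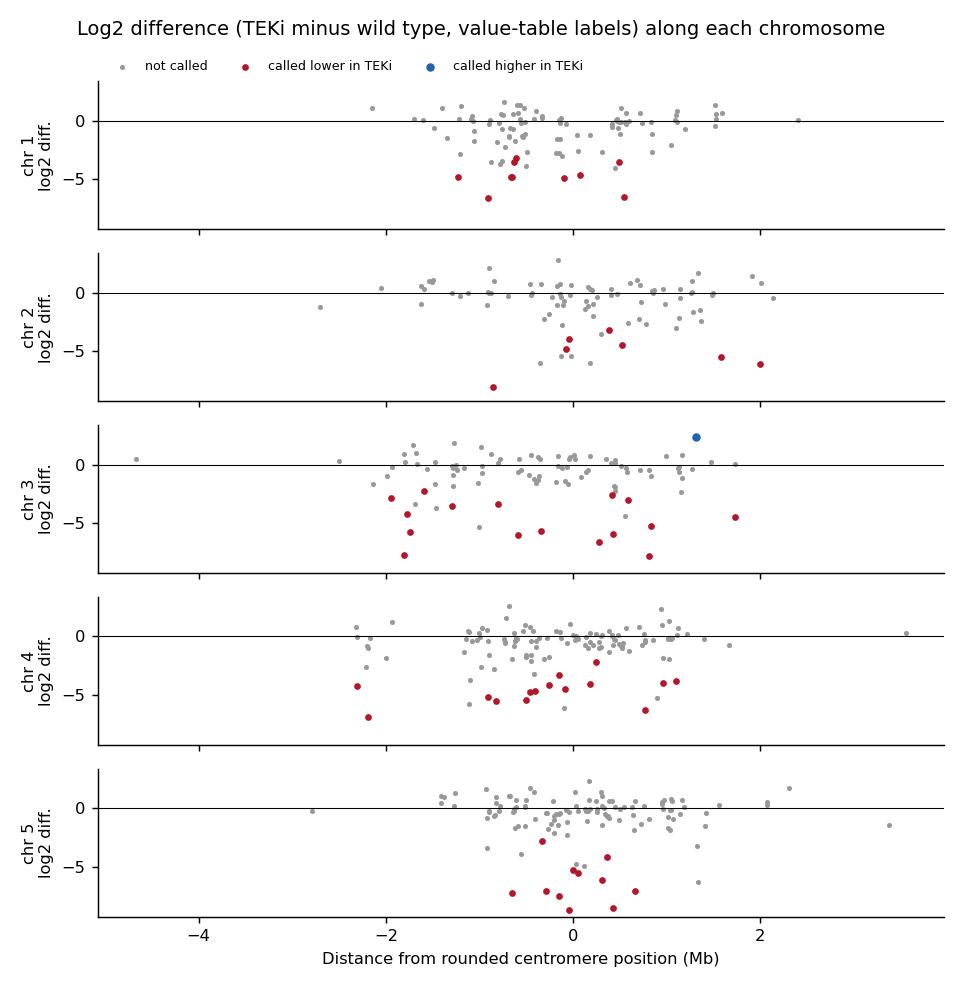
Log2 difference (TEKi minus wild type, value-table labels) of each Athila gene against its distance in Mb from the rounded centromere position, 1 panel per chromosome. The 59 genes called lower (red) are spread over all 5 chromosomes and over both sides of the positions, among members that were not called (grey), and the 1 called higher (blue) lies on chromosome 3.

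The family was also set beside its surroundings. Within 3 Mb of the positions 59 of 535 Athila genes fell (11.0%), against 218 of 4250 genes outside transposable elements (5.13%). Beyond 3 Mb 116 of 23492 such genes fell (0.494%). In the same window 102 of 308 CACTA genes (33.1%), 8 of 65 unclassed transposable element genes (12.3%), 6 of 49 hAT genes (12.2%) and 19 of 219 Mutator genes (8.68%) fell. So did 13 of 330 Copia genes (3.94%), 5 of 207 LINE genes (2.42%) and 8 of 342 other Gypsy genes (2.34%). The median log2 difference there was -0.33 in Athila, -2.10 in CACTA, -0.35 in Mutator and -0.18 in other Gypsy genes. These are counts, and the differences between classes were not tested.

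**Figure D5:**
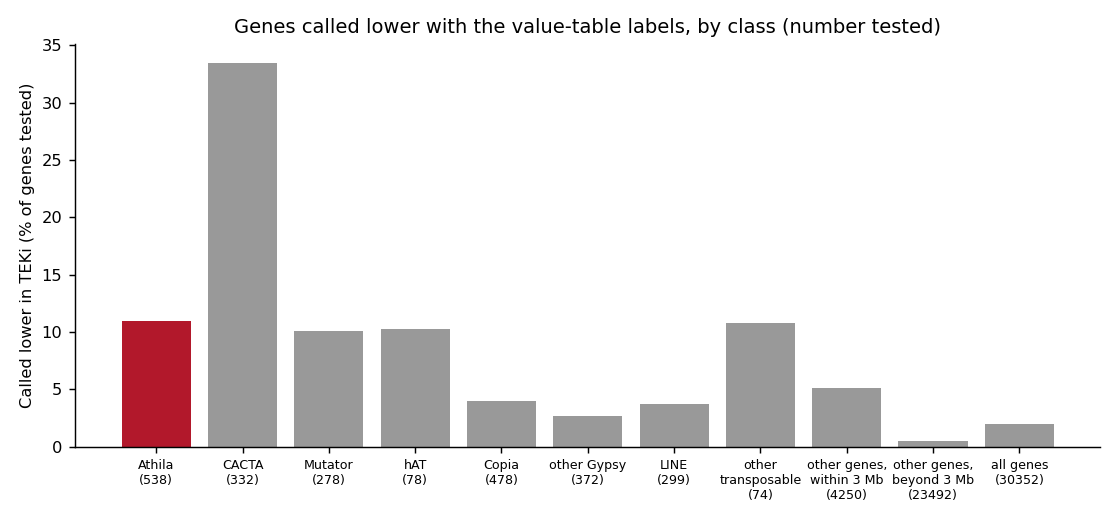
Percentage of genes called lower in the arrays labelled TEKi with the value-table labels, by transposable element class and for other genes, with the number tested under each bar. Athila genes (red) stand at 11.0%, CACTA genes at 33.4% and all genes at 1.95%.

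Genes that act in transposon silencing were set beside the family. Of 33 measured with the value-table labels 0 fell and 1 rose, beside 1.95% and 0.273% of all genes, with a median log2 difference of 0.08, and with the array-file labels 0 passed. The 1 was ROS1, a DNA glycosylase that removes 5-methylcytosine, with 26846 and 31391 in arrays labelled TEKi against 4387 and 3879 in those labelled wild type (log2 difference 2.81, SE 0.186, adjusted p = 0.0246). NRPE1, which encodes the core catalytic part of the polymerase behind RNA-directed methylation, had 22325 and 28661 on TEKi-labelled arrays against 6736 and 6840 on wild-type-labelled arrays and did not pass (log2 difference 1.90, SE 0.204, adjusted p = 0.0551). MET1 had 53840 and 51020 on TEKi-labelled arrays against 30916 and 53046 on wild-type-labelled arrays (adjusted p = 0.722), with overlapping groups, and DDM1 had 29208 and 28091 on TEKi-labelled arrays against 27559 and 22247 on wild-type-labelled arrays (adjusted p = 0.730).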

How the data were processed

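The authors deposited 1 intensity per gene model and array on a linear scale. It was made with RMA, per the submitters' processing notes, with version and settings not given in the sources used here. RMA corrects background, scales arrays to each other and summarises probes, so a change shared by all genes could be removed. Median intensity was 5639 to 5814 on the 4 arrays, and 64047 is a ceiling. Gene models follow release 6, per the file headers. For arrays, their number limits the precision. The number of probe pairs per model comes from the deposited files.

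Of 30361 models, 9 with an exact 0 were left out. Log2 intensity of the other 30352 was compared, TEKi minus wild type, by limma 3.58.1 in R 4.3.3 (lmFit, eBayes). Tests were 2-sided, p-values were adjusted by Benjamini-Hochberg across every gene tested, and 0.05 was the threshold; SE is moderated. No pseudocount or dim filter was applied. The fit was tested on data simulated with the value-table labels and the spread they give. There it was unbiased but passed changed genes only when many genes on the array changed together, and none when few did. The spread under the array-file labels was not simulated. A count of 0 does not show that no gene differed. The array-file labels are the main labels. Members, lists and rules were chosen with earlier results of these data known. Named genes were the 12 largest falls and 5 leading rises (value-table labels), the 4 smallest p in each direction (array-file labels), the 5 highest minima, the largest fall per chromosome and frame, and TEK, FWA and called silencing genes. AT5G35145, AT5G31314, AT5G35057, AT4G06524, AT4G08131, AT4G07942, AT3G42253, NRPE1, MET1, DDM1 and the neighbours named with ORF2 genes were named after their values were seen. Same-numbered arrays deviated together (r = 0.650 with the array-file labels, 0.112 with the value-table labels, all genes). With the array-file labels they are wild type 1 with array Z and TEKi 2 with array X, the closest arrays above. The r of 0.650 restates that closeness and shows no pairing, which 2 pairs could not settle. Alternatives were a pseudocount of 50, dim filters, a replicate block, other scaling, other variance models, and leaving out models or arrays.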

Additional observations from a re-analysis of the deposited data

How the results depend on the processing

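The count of Athila genes called with the array-file labels was 0 under every alternative run with those labels and 60 with the labels of the value table. With the value-table labels the count of 60 stayed within 1.5 times under the following settings, with the count over all genes in brackets. It was 60 under another quantile normalization (667, against 674 as reported) and 67 under median centring (784). A pseudocount of 50 gave 72 (858), and a mean-variance trend gave 82, all lower (1150). Leaving out models for several loci gave 60 (662), and leaving out genes at the ceiling gave 67 (770). Separately, the count was 72 (906) without the lowest quartile of level, where 234 members were tested. It was 11 without genes below the median level, where 18 members were tested, and 0, as for all genes, with plain per-gene variance, with a replicate block, at an adjusted p of 0.01 and without any 1 array. Silencing genes called (1) became 0 with the replicate block, with plain variance, at 0.01 and without any 1 array, and 2 with median centring, either dim filter, the pseudocount or the trend. The family median with the value-table labels was -1.09 without the lowest quartile and -3.05 without genes below the median level (all genes 0.08 and 0.06). These filters use the mean of all 4 arrays, which dim members pass through their bright group. The shift is therefore built in, and the counts of 72 and 11 under these filters are no check on the count of 60. The family median was -0.43 to -0.39 without single arrays. In the undisputed pair 277 members were past 2-fold (206 lower on TEKi 2, 71 higher) and 56 past 16-fold (55 and 1). Past 4-fold were 147 (133 and 14), beside 4.92% of all genes lower and 2.5% higher. The share of all genes past 2-fold or 16-fold was not counted, so those counts are not read as a result about the family. Without single arrays the difference of AT4G08132 ran from -0.063 to 0.28, that of AT1G37070 from -0.54 to 0.053 and that of AT1G41798 from -0.65 to 0.044. Other causes were not tested.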
